A study of Homo sapiens with 6 samples.

Results

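To examine how isolinderalactone (ILL), a sesquiterpenoid lactone from *Lindera* plants, affected the transcripts of the enzymes that copy DNA, the genes of 10 DNA polymerases were followed in RNA-seq libraries of HCCC9810 cells. HCCC9810 is an established human cholangiocarcinoma (CCA) cell line. The genes are POLA1, POLD1 and POLE, which encode the catalytic subunits of the replicative polymerases, POLB and POLL of base excision and end joining repair, POLH, POLI and POLK of the Y family, POLQ, and REV3L. They were selected by gene symbol, and all 10 are among the 19470 genes of the count table. The treated group received 20 μM ILL for 24 h (3 libraries), and the control group received the DMSO vehicle for the same 24 h (3 libraries). Both groups are wild-type cells of the same single line, so the values describe that line at 1 dose and 1 time. No label states that the libraries of a group came from separate cultures, and p-values therefore measure the spread between these libraries, which may be technical. Total counts lay between 34282764 and 37758569 per library, and no replicate was so close to another as to be the same library (chi-square over its degrees of freedom from 5.09 to 11.5). The biliary epithelial markers KRT7, KRT19, KRT8, KRT18, EPCAM, SOX9 and CDH1 were all expressed, with a summed level between 4585 and 5203 FPKM, the deposited unit scaled for gene length and library total, over the 6 libraries. Of these 7 genes, 4 were lower and 3 higher with ILL (edgeR adjusted p under 0.05). Their log2 fold changes ranged from -0.82 for KRT18 to 2.07 for CDH1. The summed level of 4 leukocyte markers was at most 0.476 FPKM and that of 3 endothelial markers at most 0.342 FPKM in any library. The 4 fibroblast markers summed to between 1.64 and 2.05 FPKM in controls and between 2.17 and 2.78 FPKM with ILL. Almost all of it was COL1A1, with a log2 fold change of 0.55 (edgeR adjusted p = 0.000356). The 3 hepatocyte markers summed to between 2.84 and 3.79 FPKM in controls and between 3.22 and 7.61 FPKM with ILL, the highest in ILL replicate 3, with CYP3A4 at 0 in every library. The part of these markers in the polymerase values was not tested.

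DNA polymerases extend a primer along a template strand. At each replication fork, polymerase alpha with its primase starts new strands, polymerase delta extends the lagging strand, and polymerase epsilon extends the leading strand. These enzymes copy undamaged DNA accurately, and most of the others act only where DNA is damaged. Polymerase beta fills the small gaps left by base excision repair, and polymerase lambda fills gaps at broken ends that are joined by the Ku and ligase IV machinery. The Y family enzymes eta, iota and kappa insert bases opposite damaged ones, which is called translesion synthesis, and polymerase zeta, whose catalytic subunit is REV3L, extends from the inserted base. Polymerase theta, encoded by POLQ, joins broken ends through short matching sequences.

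Promoter sequences from RefSeq (GRCh38.p14) were matched for 9 of the 10 genes, all but POLB, and gave 12 transcription starts with 250 bases before and 50 bases after each start. Shown here are the 150 bases that precede the start of POLA1 (chrX:24693768-24693917, + strand), of POLE (chr12:132687343-132687492, − strand), of POLD1 (chr19:50384173-50384322, + strand) and of POLQ (chr3:121545989-121546138, − strand), the genes with the largest decreases described below. They are written 5′ to 3′ on the strand of the gene, and capitals mark matches to an E2F-type sequence (TTTGGCGC, here read as GCGCCAAA from the other strand) and to the GC box (GGGCGG). The starts are those of RefSeq. By the GENCODE 29 gene positions given below, the POLQ window lies inside the gene, and those of POLD1 and POLE reach into it.
POLA1: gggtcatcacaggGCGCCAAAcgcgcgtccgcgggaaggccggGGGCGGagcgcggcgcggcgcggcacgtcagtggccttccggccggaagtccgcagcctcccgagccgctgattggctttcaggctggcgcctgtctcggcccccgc
POLE: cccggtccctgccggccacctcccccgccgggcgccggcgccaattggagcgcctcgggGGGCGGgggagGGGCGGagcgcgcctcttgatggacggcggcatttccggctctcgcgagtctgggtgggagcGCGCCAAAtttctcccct
POLD1: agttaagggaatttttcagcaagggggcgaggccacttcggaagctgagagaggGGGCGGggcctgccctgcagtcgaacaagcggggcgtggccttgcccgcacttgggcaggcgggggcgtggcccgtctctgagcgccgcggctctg
POLQ: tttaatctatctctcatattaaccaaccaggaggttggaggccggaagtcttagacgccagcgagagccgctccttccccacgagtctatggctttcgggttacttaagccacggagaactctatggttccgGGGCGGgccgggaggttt

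E2F proteins are transcription factors of the G1 to S transition, and their binding sequence was searched on both strands as TTTCGCGC, TTTGGCGC, TTTCCCGC or TTTGCCGC. It was found at 4 of the 12 starts, in POLA1 and POLE as printed, and in POLI and at the second start of REV3L as TTTCCCGC, compared with 3.31% of 35116 promoters of the same length. Relative to the start, the match began at position -137 in POLA1 and at -18 in POLE. The GC box was found at 8 of the 12 starts and in 45% of all promoters. A CCAAT box was found at 3 starts, compared with 34.6% of all. They were those of POLA1 and POLE and the second start of POLL, where the match began at position 42, after the start. The CHR-type element of genes with late cell cycle expression, searched as TTTGAA or TTCGAA, was found in POLQ alone, at positions -230 and 4 from its start, compared with 16.4% of all promoters. The NF-κB motif was found at 2 starts, the second start of POLD1 (chr19:50398602-50398901) and that of POLK, compared with 11.3%. The first start of POLD1, whose window is printed above, had no match. Genes that decreased and genes that did not were both among those with an E2F-type match, and binding was not measured. A match describes letters in these windows, and the absence of one says only that they were not found there.

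Between ILL-treated and control cells, the polymerase genes moved in both directions. POLQ, POLD1, POLE, POLA1, POLH and REV3L fell, POLB and POLL rose, and POLI and POLK did not pass the test. All 10 genes passed the filter on low counts and were tested together with the other genes, 13066 in all, by the quasi-likelihood method of edgeR, with p-values adjusted over all of them (Benjamini-Hochberg). A gene was called at an adjusted p-value under 0.05. By this rule 6 of the 10 polymerase genes were lower, compared with 36.9% of all genes tested, and 2 were higher, compared with 36.2%. With the additional cutoff of the study's methods, a fold change under 0.5 or above 2, 5 polymerase genes were lower and are called differentially expressed genes (DEGs) here, compared with 11.4% of all tested genes. REV3L was the gene that fell without reaching that cutoff. By the same edgeR test 0 were DEGs higher with ILL, compared with 12.5% of all. DESeq2 also gave 0, and the 2 genes with an unadjusted p-value under 0.05 and a higher level were POLB and POLL. The ILL libraries all lay on one side of the control libraries for 8 of the 10 genes, against 75.4% of all genes, so a lack of overlap alone is common in this experiment. The median log2 fold change was -0.78 over the 10 genes and -0.0012 over all genes tested. In bulk RNA, fewer cells that express a gene and less of its RNA per cell cannot be told apart.

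**Figure D1:**
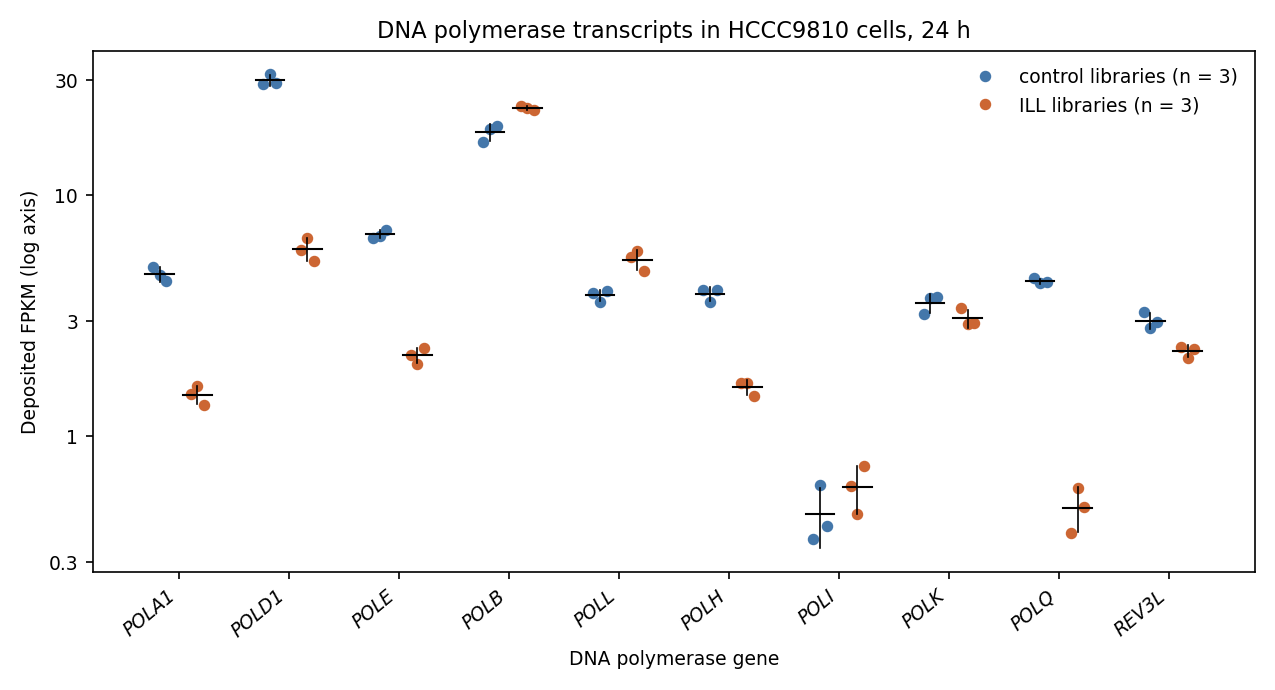
Deposited FPKM of each polymerase gene in the 3 control libraries (blue) and the 3 ILL libraries (orange) on a log axis, with horizontal bars at the group means and vertical lines of 1 SD. POLD1 was the highest in control libraries at a mean of 29.99 FPKM and POLB in ILL libraries at 23.0, while POLI and POLQ were the lowest with ILL.

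The catalytic subunits of all replicative polymerases fell. POLD1, the catalytic subunit of polymerase delta (chromosome 19 of GRCh38, 50384204 to 50418016), had 4216, 4192 and 3898 counts in control replicates 1 to 3 and 813, 909 and 736 counts in ILL replicates 1 to 3. The highest ILL library was thus far under the lowest control library. In CPM, counts scaled by library total and edgeR's TMM factor, POLD1 was at 113 ± 5.78 (SD, n = 3) in controls and 23.6 ± 2.70 (SD, n = 3) with ILL. Its log2 fold change was -2.26 (SE 0.07, edgeR adjusted p = 1.1e-18), where SE is the standard error, which leaves 20.9% of the control level. POLE, the catalytic subunit of polymerase epsilon (chromosome 12, 132623753 to 132687365), had 2231, 2066 and 2214 counts in controls and 687, 627 and 736 with ILL, again without overlap. It fell by 1.60 on the log2 scale (SE 0.07, edgeR adjusted p = 9.4e-16), to 32.9% of control. POLA1, the catalytic subunit of polymerase alpha (chromosome X, 24693919 to 24996986), had 1767, 1480 and 1412 counts in controls and 496, 529 and 447 with ILL. It fell by 1.59 (SE 0.09, edgeR adjusted p = 1.9e-14), to 33.2% of control.

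The fork enzymes did not keep the same proportions. Per length, the ratio of POLE to POLA1 FPKM was 1.47 ± 0.16 (SD, n = 3) in controls and 1.47 ± 0.24 (SD, n = 3) with ILL, and the groups overlapped. The ratio of POLD1 to POLA1 was 5.74, 6.82 and 6.65 in control replicates 1 to 3 and 3.95, 4.14 and 3.96 with ILL, and that of POLD1 to POLE was 4.35 ± 0.31 (SD, n = 3) in controls and 2.78 ± 0.52 (SD, n = 3) with ILL. Both ratios were lower in every ILL library than in every control library. These ratios do not depend on how the libraries are scaled, and they were given no test. The annotation places 426 exonic bases of POLD1, or 8.64%, also in AC020909.1 on the same strand, and how such reads were counted is not given in the sources used here.

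The accessory subunits of these enzymes largely followed their catalytic subunits, with 1 exception. Of 9 genes, 8 fell and 1 rose, 7 were DEGs lower with ILL, and the median log2 fold change was -1.57. Of all genes tested, 36.9% were called lower, 36.2% higher and 11.4% were DEGs lower with ILL. The primase subunit gene PRIM1 fell most, by 2.72 (SE 0.21, edgeR adjusted p = 1.4e-11), with 885, 734 and 751 counts in controls and 167, 51 and 125 with ILL. The ILL libraries of PRIM1 were themselves spread over more than a factor of 3 in counts. POLE2, the second subunit of polymerase epsilon, had a log2 fold change of -2.61, and POLA2, the regulatory subunit of polymerase alpha, one of -2.13. The values were -1.05 for POLE4 and -0.93 for PRIM2, the other primase subunit. POLD4, the smallest subunit of polymerase delta, was the exception, with 2780, 2626 and 2851 counts in controls and 5592, 6000 and 5341 with ILL. Its log2 fold change was 1.10 (SE 0.06, edgeR adjusted p = 3.9e-14), so that genes of the same enzyme complex moved in opposite directions, POLD1 down and POLD4 up.

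The repair polymerases POLB and POLL were the 2 genes that rose, both by less than 2-fold. POLB (chromosome 8, 42338454 to 42371808) had 902, 932 and 968 counts in controls and 1206, 1180 and 1161 with ILL. It was at 25.7 ± 2.19 CPM (SD, n = 3) in controls and 34.0 ± 0.68 CPM (SD, n = 3) with ILL, a log2 fold change of 0.40 (SE 0.08, edgeR adjusted p = 6.5e-05). POLL, which encodes polymerase lambda (chromosome 10, 101578882 to 101588270), had 427, 355 and 400 counts in controls and 569, 599 and 499 with ILL. Its log2 fold change was 0.56 (SE 0.11, edgeR adjusted p = 8.0e-05), and the lowest ILL library was above the highest control library for both genes. The ratio of POLB to POLL FPKM was 4.78 ± 0.52 (SD, n = 3) in controls and 4.28 ± 0.36 (SD, n = 3) with ILL, with overlap between the groups. POLL shares 243 exonic bases (4.48%) with DPCD, which lies on the other strand, and reads of the 2 genes there cannot be told apart if strand was not used in counting.

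The genes listed for base excision repair and for end joining mostly fell, and LIG4 rose with POLB and POLL. All 8 base excision and single-strand break genes fell, 3 of them as DEGs, with a median log2 fold change of -0.70. The shares over all genes tested were 36.9% lower and 11.4% lower as DEGs. The largest decreases were log2 fold changes of -2.58 for the flap endonuclease gene FEN1, -1.996 for the replicative DNA ligase gene LIG1 and -1.76 for PARP1, which senses strand breaks. Among the smallest were -0.42 for XRCC1, the scaffold that binds polymerase beta (edgeR adjusted p = 7.1e-05), and -0.46 for LIG3. Of 10 end joining genes, 8 fell, compared with 36.9% of all genes tested, and 1 rose, compared with 36.2%. The remaining 1 did not pass the test, and the median was -0.75. The log2 fold change was -1.47 for PAXX and for PRKDC, the DNA-dependent protein kinase, and -1.23 for RHNO1, while DCLRE1C was at -0.47 and NHEJ1 at -0.60. TP53BP1 was the gene that did not pass, at 0.13. LIG4, the ligase of the pathway in which polymerase lambda works, rose by 0.69 (SE 0.08, edgeR adjusted p = 2.0e-08), at 6.51 ± 0.44 FPKM (SD, n = 3) in controls and 10.01 ± 0.94 FPKM (SD, n = 3) with ILL.

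**Figure D2:**
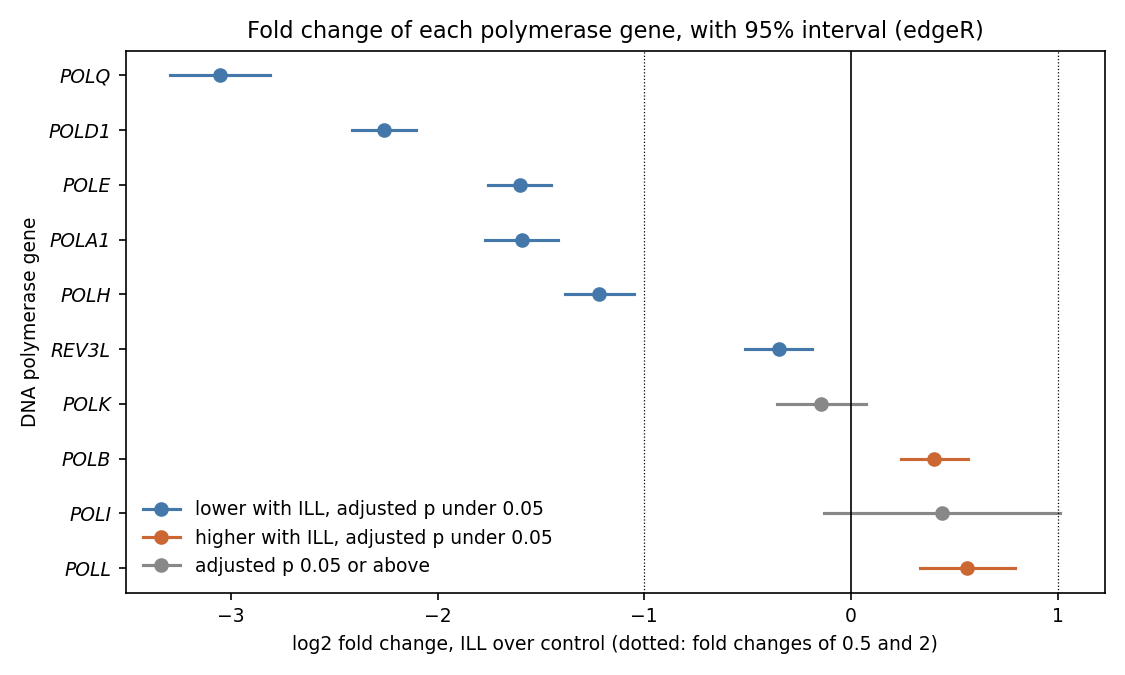
Log2 fold change of each polymerase gene between ILL and control libraries with its 95% interval from edgeR, where dotted lines mark fold changes of 0.5 and 2. The intervals of POLQ, POLD1, POLE, POLA1 and POLH lie wholly under the line at 0.5, and those of POLK and POLI span 0.

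The Y family members differed from each other. POLH, which encodes polymerase eta (chromosome 6, 43576150 to 43615660), is known for accurate bypass of ultraviolet damage, and its inherited loss causes a variant form of xeroderma pigmentosum. It had 1701, 1374 and 1564 counts in controls and 662, 657 and 584 with ILL. All ILL libraries of POLH were under all control libraries, and the gene fell by 1.22 on the log2 scale (SE 0.08, edgeR adjusted p = 1.3e-12), to 43.0% of control. POLK, which encodes polymerase kappa (chromosome 5, 75511756 to 75601144), had 592, 626 and 640 counts in controls and 591, 507 and 514 with ILL. After scaling the groups overlapped, from 15.2 to 18.1 CPM in controls and from 14.7 to 16.9 CPM with ILL, and the log2 fold change was -0.14 with a 95% interval from -0.36 to 0.07 (edgeR adjusted p = 0.222), so that a decrease of the size seen in POLH lay outside the interval. POLI, which encodes polymerase iota (chromosome 18, 54269404 to 54321266), was the least counted gene, with 68, 103 and 71 counts in controls and 106, 81 and 129 with ILL. Its log2 fold change was 0.44 with a 95% interval from -0.13 to 1.01 (edgeR adjusted p = 0.155), and no difference was detectable at this depth. Over the libraries left out in turn, the POLI value lay between 0.27 and 0.68. POLI and POLK share 6.6% and 8.28% of their exonic bases with antisense genes, and POLK a further 2.53% with COL4A3BP on the other strand.

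Relative to POLH, POLK and POLI stood in different proportions in the groups, while REV3L and POLK did not separate. The ratio of POLK to POLH FPKM was 0.795, 1.04 and 0.935 in control replicates 1 to 3 and 2.04, 1.76 and 2.01 with ILL, with no overlap. The ratio of POLI to POLH was 0.124 ± 0.044 (SD, n = 3) in controls and 0.390 ± 0.114 (SD, n = 3) with ILL, also without overlap. The ratio of POLH to POLA1 was 0.830 ± 0.079 (SD, n = 3) in controls and 1.07 ± 0.04 (SD, n = 3) with ILL, and every ILL library was above every control library. The ratio of REV3L to POLK was 0.853 ± 0.146 (SD, n = 3) in controls and 0.734 ± 0.047 (SD, n = 3) with ILL, and the groups overlapped.

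Translesion polymerases are brought to the fork by ubiquitin on the sliding clamp PCNA, and the list of 14 genes for this step and for translesion control holds enzymes that place or remove the mark together with proteins that bind PCNA or a polymerase. All 14 were called, 11 lower and 3 higher, compared with 36.9% and 36.2% of all genes tested. The median log2 fold change was -0.73. RAD18, the ligase that attaches ubiquitin to PCNA, fell by 2.15 (SE 0.09, edgeR adjusted p = 2.8e-16). The log2 fold change was -3.21 for DTL, a receptor of the ligase that degrades proteins bound to PCNA, and -2.85 for PCLAF, whose product binds PCNA. The ubiquitin-conjugating enzyme genes UBE2A and UBE2B, whose products work with RAD18, rose by 0.32 and 0.73, and WDR48, the cofactor of the enzyme that removes the mark, rose by 0.63. The gene of that enzyme, USP1, was at -1.38 (edgeR adjusted p = 4.9e-16) and was named here after its values were seen.

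POLQ showed the largest decrease of the 10 genes. It lies on chromosome 3 from 121431427 to 121546641 and had 1495, 1297 and 1327 counts in control replicates 1 to 3 but 124, 190 and 159 in ILL replicates 1 to 3. It was at 37.6 ± 0.80 CPM (SD, n = 3) in controls and 4.54 ± 0.99 CPM (SD, n = 3) with ILL. The log2 fold change was -3.05 (SE 0.12, edgeR adjusted p = 2.0e-17), an 8.30-fold lower level, and 0.781% of all tested genes had a lower value. Leaving out ILL replicate 2, the highest of the ILL libraries, gave -3.22, and leaving out ILL replicate 1 gave -2.90. The ratio of POLQ to POLD1 FPKM was 0.147 ± 0.010 (SD, n = 3) in controls and 0.085 ± 0.015 (SD, n = 3) with ILL, so POLQ was lower with ILL also relative to the replicative gene that fell most.

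REV3L, the catalytic subunit of polymerase zeta (chromosome 6, 111299028 to 111483715), showed a small decrease. It had 1424, 1106 and 1191 counts in controls and 965, 866 and 951 with ILL, and the groups did not overlap. The log2 fold change was -0.35 (SE 0.08, edgeR adjusted p = 0.000328), to 78.5% of control. Its exons share 4.64% of their bases with 1 antisense gene and 0.942% with another. MAD2L2 and REV1, whose products act with REV3L, also fell, with -0.93 for MAD2L2, which encodes its accessory subunit (SE 0.09, edgeR adjusted p = 1.1e-09), and -0.38 for REV1, the scaffold that holds the translesion enzymes together (edgeR adjusted p = 4.8e-05).

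Among the other DNA polymerases, PRIMPOL, a primase that restarts synthesis past damage, fell by 1.25 (SE 0.17, edgeR adjusted p = 4.4e-07) and was the 1 DEG among the 7 tested genes of this list. The mitochondrial accessory subunit gene POLG2 fell by 0.84. POLM, a relative of POLL, had a log2 fold change of 0.14 (edgeR adjusted p = 0.0382), which no longer passed the test with libraries scaled by total counts (0.07, edgeR adjusted p = 0.276). In all, 4 genes of this list fell and 1 rose, compared with 36.9% and 36.2% of all genes tested, with a median of -0.38. DNTT, the polymerase of lymphoid cells, had no counts in any library, and POLN was too low to be tested.

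Because the decreases were unequal, the order of the transcript levels changed. In control libraries, per length, the order was POLD1 at 29.99 ± 1.55 FPKM, POLB at 18.3 ± 1.48, POLE at 6.90 ± 0.28, POLA1 at 4.70 ± 0.33, POLQ at 4.40 ± 0.11, POLH at 3.89 ± 0.26, POLL at 3.84 ± 0.22, POLK at 3.58 ± 0.32, REV3L at 3.02 ± 0.24 and POLI at 0.474 ± 0.132 (SD, n = 3 each). POLA1 and POLQ overlapped in range, as did each neighbouring pair from POLH to REV3L. With ILL the order was POLB at 23.0 ± 0.50 FPKM, POLD1 at 5.97 ± 0.66, POLL at 5.41 ± 0.52, POLK at 3.09 ± 0.27, REV3L at 2.26 ± 0.12, POLE at 2.17 ± 0.16, POLH at 1.60 ± 0.12, POLA1 at 1.49 ± 0.13, POLI at 0.613 ± 0.137 and POLQ at 0.505 ± 0.107 (SD, n = 3 each). Here POLD1 and POLL, REV3L and POLE, POLH and POLA1, and POLI and POLQ overlapped. POLQ went from the fifth place to the last, and the ratio of POLB to POLD1 from 0.610 ± 0.048 (SD, n = 3) to 3.89 ± 0.38 (SD, n = 3).

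The order between genes rests on the gene lengths behind the deposited FPKM, whose annotation is not given in the sources used here. The length was 1439 bases for POLB and 11157 bases for POLH, whereas the joined exons in GENCODE 29 span 4106 and 3540 bases. With the GENCODE lengths, an alternative chosen after seeing the data, the control order began with POLD1 at 23.4 ± 1.21 and POLH at 12.3 ± 0.81, POLB was in place 4 at 6.41 ± 0.52 and POLE in place 6 at 3.68 ± 0.15, in units of FPKM (SD, n = 3 each). With ILL it began with POLB at 8.08 ± 0.17, POLH at 5.03 ± 0.37 and POLD1 at 4.66 ± 0.52 (SD, n = 3 each), and POLQ was in place 9, above POLI. POLD1 was thus the highest in controls and POLB with ILL under both sets of lengths, and the places of POLH and POLE depended on the set. The lengths cancel in the change of any gene or pair of genes between the groups.

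**Figure D3:**
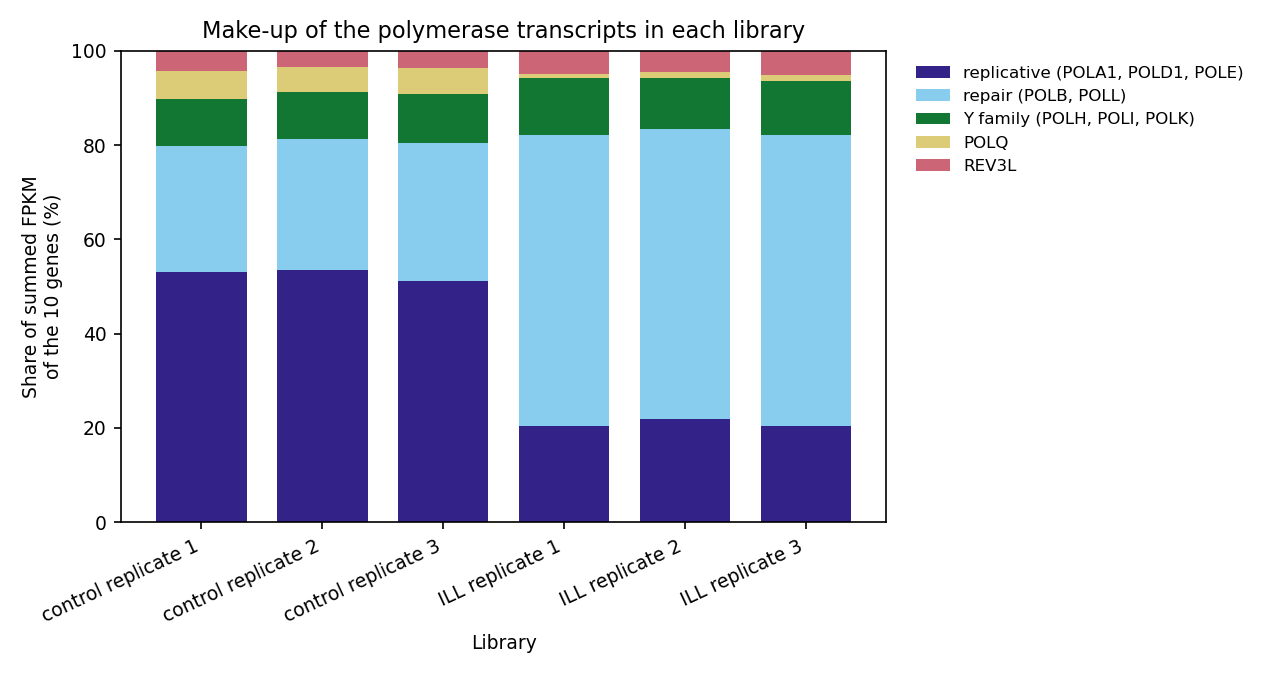
Share of the summed FPKM of the 10 polymerase genes taken by each class in each library, as stacked bars that add up to 100%, with the gene lengths of the deposited table. The replicative genes took 51.1% to 53.5% of each control bar and 20.3% to 21.8% of each ILL bar, while POLB and POLL together took 26.8% to 29.3% and 61.6% to 61.7%.

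Summed over the 10 genes, the level was 79.1 ± 2.14 FPKM (SD, n = 3) in controls and 46.1 ± 1.58 FPKM (SD, n = 3) with ILL. The replicative genes alone went from 41.6 ± 1.43 to 9.63 ± 0.63 FPKM (SD, n = 3 each), whereas the sum of the other 7 genes was 37.5 ± 1.51 FPKM in controls and 36.5 ± 1.10 FPKM with ILL (SD, n = 3 each). POLH, POLI and POLK together went from 7.94 ± 0.31 to 5.30 ± 0.33 FPKM (SD, n = 3 each). Within the 7 genes, the higher POLB and POLL values stood against the lower POLQ and POLH values. The ratio of the 7 genes to the replicative genes was 0.882, 0.869 and 0.955 in control replicates 1 to 3 and 3.90, 3.58 and 3.92 with ILL, and it is given as a description without a test. This ratio weights each gene by its FPKM and so rests largely on POLB and POLD1.

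The near-equal sums of the 7 genes held only with the deposited lengths. In CPM, which is not divided by length, the 7 genes summed to 169.8 ± 4.69 in controls and 118 ± 3.22 with ILL, and with GENCODE lengths to 29.8 ± 0.96 and 20.5 ± 0.78 in units of FPKM (SD, n = 3 each), without overlap between the groups. The replicative genes summed to 215 ± 4.70 CPM in controls and 57.3 ± 2.57 CPM with ILL (SD, n = 3 each). The log2 difference between groups in the ratio was 2.08 with deposited lengths, 1.55 with GENCODE lengths and 1.38 without division by length, so that the 7 genes were a larger share with ILL on each scale. The share of POLB and POLL went from 9.49% ± 0.52 to 28.5% ± 0.45 in CPM and from 13.3% ± 0.76 to 38.4% ± 0.30 with GENCODE lengths (SD, n = 3 each).

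The replisome, clamp and clamp loader genes that were tested fell with the replicative polymerases. All 13 replisome scaffold and fork genes were DEGs lower with ILL, compared with 11.4% of all genes tested, with a median log2 fold change of -2.42. The lowest values were -3.51 for MCM10, -3.03 for CLSPN and -2.91 for CDC45, a part of the replicative helicase, and the smallest decreases were -2.06 for GINS3, -1.85 for DONSON and -1.65 for TIPIN. Of the 10 sliding clamp and clamp loader genes, 9 were tested and all 9 fell, 8 as DEGs, with a median of -2.38, and CHTF8 is listed at 0 in every library. Among these 9 genes, DSCC1, ATAD5 and RFC3 were at -3.19, -2.78 and -2.58, while RFC2, RFC4 and RFC1 were at -1.95, -1.77 and -0.56. PCNA, the clamp that holds polymerases delta and epsilon on DNA and a gene named here after its values were seen, was at 224 ± 3.12 FPKM (SD, n = 3) in controls and 40.2 ± 1.52 FPKM (SD, n = 3) with ILL. Its log2 fold change of -2.41 was close to that of POLD1.

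Markers of proliferating cells moved in the same direction as the replicative polymerases. All 11 fell as DEGs, compared with 11.4% of all genes tested, with a median log2 fold change of -3.11. Their summed level lay between 706 and 744 FPKM without ILL and between 73.7 and 78.0 FPKM with it. The lowest were BIRC5, TOP2A and TYMS at -3.56, -3.55 and -3.33, and the highest were CCNE1, CCNE2 and MCM2 at -2.86, -2.64 and -2.47. The decreases of POLA1, POLE, POLH and POLD1 were smaller than that of any of these 11 genes, and the POLQ value lay within their range. The part that the proliferative state of the cells had in the polymerase values was not tested.

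**Figure D4:**
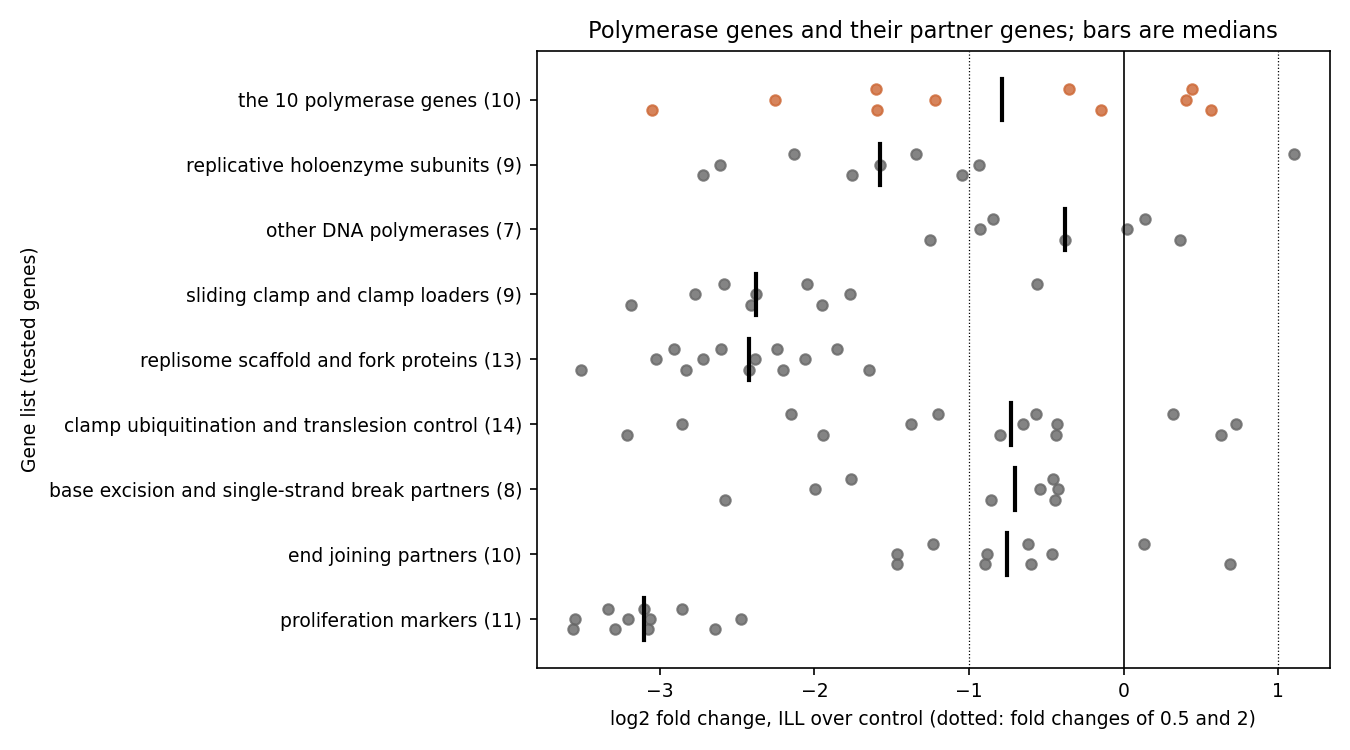
Log2 fold changes between ILL and control libraries of the 10 polymerase genes (orange) and of tested genes in 8 lists of partner and marker genes (grey), each point 1 gene, with black bars at the medians. Points of the sliding clamp, replisome and proliferation lists lie under 0 throughout, whereas the polymerase genes spread from -3.05 for POLQ to 0.56 for POLL.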

How the data were processed

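RNA was extracted with TRIzol and sequenced as Illumina mRNA libraries, and the 6 libraries were grouped by their labels into control and ILL. The authors deposited raw counts per gene symbol and FPKM values, which are those counts divided by 1 length per gene, of unstated annotation, and by the library's total count (100% of nonzero values within 0.1%). The submitters' processing notes name GRCh38 and DESeq2, and the aligner, the counting program and the strand setting are not given in the sources used here. Counts were filtered with filterByExpr, normalized by TMM and tested with edgeR's quasi-likelihood test (edgeR 4.0.16, R 4.3.3), with Benjamini-Hochberg adjustment over the 13066 genes that passed. The procedure was tested on simulated data. Standard errors are the log2 fold change divided by the root of the F statistic, and intervals are at 95%. The biological coefficient of variation was 0.0717.

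The polymerase genes and partner lists were chosen with earlier results of these data known. Named partner genes are at most 3 at each end of a list among those with an adjusted p-value under 0.05, plus any that a count of 5 or fewer turns on. PCNA and USP1 were named after their values were seen. The values of some genes are not reported here. Gene positions and exon overlaps come from GENCODE 29 and promoters from RefSeq. Alternatives were other scalings, other filters, DESeq2 1.42.0, limma 3.58.1 on log2 of FPKM plus 1 or 0.1, the replicate number as a block, leaving out each library and, chosen after seeing the data, GENCODE 29 exon lengths.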

Additional observations from a re-analysis of the deposited data

How the results depend on the processing

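The polymerase genes lower (6) and higher (2) with ILL had the same counts under all 15 alternatives, and each of the 10 genes kept its direction and its side of the threshold wherever it was tested. The 5 DEGs became 4 with limma on log2(FPKM + 1), where POLH was at -0.91, since that scale understates changes of low genes, and POLQ was at -1.85. The DEGs among all tested genes were 3120, compared with 1591 and 1609 by limma on log2(FPKM + 1) with and without the filter. POLI was not tested where a mean of at least 1 FPKM was required. Library scaling by total counts moved the median of all genes to -0.07. The log2 difference between groups in the ratio of specialised to replicative genes was 2.08, and it was 1.38 on counts not divided by length, 1.34 with equal weight per gene and 1.55 with GENCODE lengths, an alternative chosen after seeing the data. Same-numbered libraries did not deviate together (correlations between -0.022 and 0.011), and with the replicate block 6 polymerase genes were again lower, 2 higher, with 9437 genes called in place of 9547. USP1 was not followed over the alternatives. Of the other named partner genes that were, POLM alone changed its call, in 8 of its alternatives, in each case losing it. Depth limited POLI, at 68 to 129 counts.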
